A study of Rattus norvegicus with 13 samples.

Results

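Integrins, cadherins and protocadherins are the surface receptors by which cells hold on to matrix and to each other, and their transcripts were compared here in dermal precursors of 3 skin regions and in mesenchymal stromal cells. The members were the genes whose symbol in the array's platform annotation began with Itga, Itgb, Cdh followed by a digit, or Pcdh. Cdh6, Cdh7 and symbols beginning with Itgb1bp were left out, and a probe set had to carry exactly 1 symbol. The rule gave 51 of the 14506 genes tested: 20 integrin subunits, 13 cadherins, 16 protocadherins and 2 genes that share only the spelling, Itgbl1 (an integrin beta-like secreted protein) and Itgb3bp (a centromere protein). Each member had 1 probe set. Itgav and Cdh11, which were meant to be shown whatever their values, are not analysed here.

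The arrays were Affymetrix Rat Gene 1.0 ST arrays of cells from adult Sprague Dawley rats, all passaged 2 times. Skin-derived precursors (SKPs) are dermal cells with neural crest-like features that are grown in culture, and they came from dorsal trunk, facial and ventral trunk skin, with 3 isolates of each. Mesenchymal stromal cells (MSCs) had 4 isolates. The labels name no transgene, mutant allele or drug for any group. They give neither the tissue the MSCs came from nor the culture media, so cell type and culture condition cannot be told apart. The question behind the series is whether SKPs from skin of different embryonic origins are alike.

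Integrins are dimers of an alpha and a beta subunit. The alpha subunit sets much of the choice of ligand (collagen, laminin, fibronectin or counter-receptors on other cells), and the beta subunit couples the dimer through talin, kindlin and vinculin to actin. Classical cadherins bind the same cadherin on the neighbouring cell and hold beta-catenin and p120-catenin on the inside. In dermal stroma N-cadherin (Cdh2) is a common cadherin, while epithelia use E-cadherin (Cdh1) and vessels VE-cadherin (Cdh5). Protocadherins are weaker adhesion molecules, and the clustered ones lie in tandem arrays in which each gene has its own promoter.

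Promoters are shown because the members include a tandem family, the Pcdhb genes, and because 2 collagen receptor subunits, Itga11 and Itga10, moved in opposite directions. RefSeq sequences of build GRCr8 were used, from 250 bases before to 50 after each gene's start, and 38 of the 51 members had one. The promoters of all 9 measured Pcdhb genes held a run of 10 letters, GGTGGCGCTG. It was found by searching these 9 sequences, so its presence in them is a description. In the whole table the run, on either strand, was in 66 of 27457 promoters (0.24%), and 15 of these were among the 19 Pcdhb genes listed there. None of the other 29 members with a sequence held it. The windows of 38 bases around the run are given below for the 9 genes, with the run in capitals. All lie on the plus strand of chromosome 18, from chr18:29279919-29279956 (Pcdhb2) to chr18:29492145-29492182 (Pcdhb21), with Pcdhb20 at chr18:29485806-29485843. The run began 52 to 98 bases before the start in 7 genes, 208 before it in Pcdhb8 and 229 before it in Pcdhb6.
Pcdhb2: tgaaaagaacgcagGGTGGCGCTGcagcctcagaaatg
Pcdhb3: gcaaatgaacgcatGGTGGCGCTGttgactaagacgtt
Pcdhb4: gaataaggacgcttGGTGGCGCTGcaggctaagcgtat
Pcdhb5: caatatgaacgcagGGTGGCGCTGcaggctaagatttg
Pcdhb6: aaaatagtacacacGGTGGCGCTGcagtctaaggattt
Pcdhb8: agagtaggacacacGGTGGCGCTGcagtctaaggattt
Pcdhb12: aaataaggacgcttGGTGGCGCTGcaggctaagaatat
Pcdhb20: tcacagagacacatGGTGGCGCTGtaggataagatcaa
Pcdhb21: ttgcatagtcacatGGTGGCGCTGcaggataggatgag

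The 250 bases before the start of Itga11 (chr8:72041182-72041431, plus strand), of Itga10 (chr2:186871461-186871710, plus strand) and of Itgam (chr1:192089342-192089591, plus strand) follow, the last because it is the leukocyte integrin subunit of the results below. Capitals mark GC boxes (GGGCGG) and the core of PU.1 sites (GAGGAA; PU.1 is a factor of myeloid cells), searched on both strands. TATA boxes (TATAAA) and CArG boxes were searched too, and the matches marked do not overlap each other.
Itga11: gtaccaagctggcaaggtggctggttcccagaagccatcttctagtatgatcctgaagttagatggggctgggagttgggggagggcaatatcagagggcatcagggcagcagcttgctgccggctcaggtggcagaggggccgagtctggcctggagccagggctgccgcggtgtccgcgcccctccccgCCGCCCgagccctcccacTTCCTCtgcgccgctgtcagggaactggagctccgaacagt
Itga10: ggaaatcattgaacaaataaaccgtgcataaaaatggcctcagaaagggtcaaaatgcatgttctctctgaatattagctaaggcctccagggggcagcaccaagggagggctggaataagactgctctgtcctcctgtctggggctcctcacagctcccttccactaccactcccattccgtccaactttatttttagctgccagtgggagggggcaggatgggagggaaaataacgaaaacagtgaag
Itgam: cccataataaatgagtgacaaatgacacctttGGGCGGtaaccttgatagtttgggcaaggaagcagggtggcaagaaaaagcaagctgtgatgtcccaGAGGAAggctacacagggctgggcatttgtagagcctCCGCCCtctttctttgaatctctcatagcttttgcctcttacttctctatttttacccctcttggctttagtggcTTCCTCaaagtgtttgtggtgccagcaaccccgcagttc
The Itgam window held 2 GC boxes and 2 PU.1 cores, the Itga11 window 1 of each, and the Itga10 window none of the 4 motifs. Of the 38 members, 13 held a GC box (34.2%, against 32.4% of all promoters), 11 a PU.1 core (28.9% against 23.2%), 5 a TATA box (13.2% against 13.1%) and 1 a CArG box (2.63% against 1.5%).

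Some arrays stood apart from their group. On dorsal array 3 the mean of 10 stromal markers was 9.64, against 10.95 to 11.56 on the other 12 arrays (log2, as are all levels below). Facial array 3 had the highest mean of 15 macrophage and leukocyte markers, 10.05, against 4.26 to 7.55 elsewhere. The MSC arrays formed pairs, with 9 smooth muscle and pericyte markers at 8.17 and 8.44 on arrays 1 and 2 and at 9.70 and 10.15 on arrays 3 and 4. The 8 SKP identity markers ranged from 8.13 to 8.52 in facial, 8.19 to 8.36 in ventral and 6.71 to 8.02 in dorsal SKPs against 6.73 to 7.05 in MSCs, and dorsal array 3 lay just below the MSC range. Where a member's call described below was lost or gained without one of these arrays or pairs, the value without it is given, or the number of alternative analyses (up to 24, listed with the methods) in which the call was lost. Single genes of the partner, ligand and marker lists were not followed in this way. A level was called low below the 25th percentile of all genes' means in a group (3.79 to 3.84), and where a side is low the size of a difference is not resolved.

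Between SKPs (mean of the 3 regions) and MSCs, 15 of the 51 members were called at an adjusted p under 0.05 (limma, Benjamini-Hochberg over all 14506 genes). The share, 29.4%, lay near the 25.3% of all genes that were called. Of the 51, 9 were higher in SKPs (13.1% of all genes) and 6 lower (12.2% of all genes), with a median log2 difference of 0.07 over the members against -0.02 over all genes. Among the 20 integrin subunits 2 rose (Itga4, Itga10) and 4 fell (Itga11, Itga7, Itgb1, Itgb8), and among the 13 cadherins 3 rose (Cdh2, Cdh23, Cdh5) and 1 fell (Cdh15). Of the 16 protocadherins 4 rose (Pcdh7, Pcdh18, Pcdh1, Pcdhb20) and 0 fell, with 5 and 1 at an unadjusted p under 0.05. Of all 14506 genes 2603 were higher and 2603 lower at that unadjusted threshold. The remaining called member was Itgbl1, which fell. Of the 15, 9 differed by at least 1 on the log2 scale (8.70% of all genes did), and in 8 of the 51 the 9 SKP arrays and 4 MSC arrays did not overlap (12.6% of all genes).

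By region against MSCs, 10 members were called in dorsal SKPs (19.6%, against 16.5% of all genes), 14 in facial SKPs (27.5% against 19.0%) and 15 in ventral SKPs (29.4% against 24.4%). These comparisons share the MSC arrays. Itga11, Itga7 and Cdh15 were lower, and Cdh2, Pcdh7 and Pcdh18 higher, in each. The facial count fell to 8 without facial array 2 and to 9 without facial array 3, and the ventral count to 9 without ventral array 1.

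**Figure D1:**
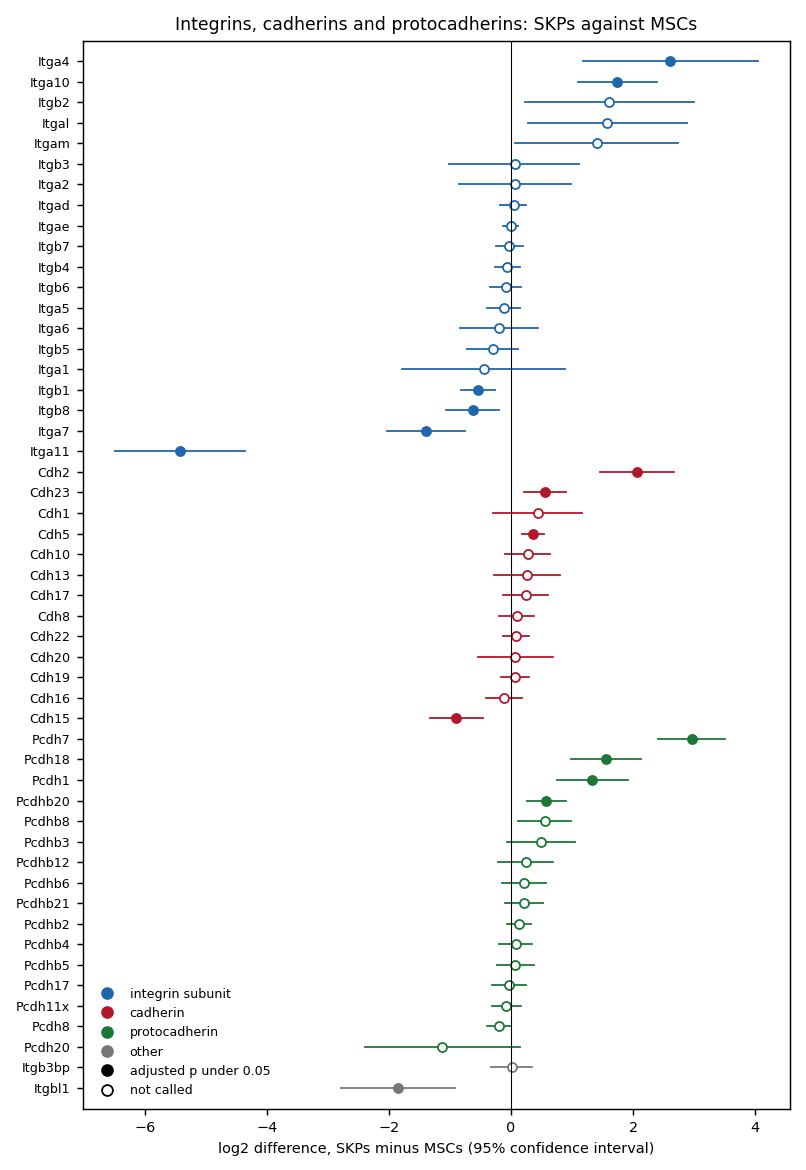
Log2 difference between SKPs (mean of 3 regions) and MSCs for each of the 51 members, with its 95% confidence interval; filled points had an adjusted p under 0.05 and open points did not. Itga11 lies farthest to the left at -5.43 and Pcdh7 farthest to the right at 2.96, while most cadherins and clustered protocadherins lie within 1 of 0.

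The 4 measured collagen-binding alpha subunits did not move together: Itga11 fell, Itga10 rose, and Itga1 and Itga2 were not called. Itga11, whose dimer with beta 1 binds fibrillar collagen in mesenchymal cells, stood at 6.24, 4.94 and 5.21 on the dorsal arrays. It stood at 4.46, 4.04 and 4.57 on the facial, at 4.32, 4.16 and 4.01 on the ventral and at 9.35, 8.40, 11.49 and 11.12 on the MSC arrays. Every SKP array lay below every MSC array, and MSC arrays 3 and 4 were the highest. The fall was 43.1-fold (log2 difference -5.43, SE 0.49, adjusted p = 9.59e-06), and it was called in dorsal (-4.63), facial (-5.73) and ventral SKPs (-5.93) alike. Without MSC arrays 1 and 2 it was -6.65 and without arrays 3 and 4 it was -4.21, called both times. The mean of the 9 smooth muscle and pericyte markers lay between 5.60 and 5.93 on the SKP arrays and between 8.17 and 10.15 on the MSC arrays. Of these markers 7 were called lower in SKPs and 0 higher (Acta2 by -4.34, adjusted p = 4.87e-06), while Rgs5 and Cspg4 were not called. Their part in the result was not tested.

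Itga10, the collagen receptor subunit known from cartilage, stood at 6.43, 5.90 and 4.59 on the dorsal, 7.07, 6.66 and 7.10 on the facial and 6.06, 7.28 and 6.65 on the ventral arrays, against 4.87, 4.66, 4.77 and 4.43 on the MSC arrays. Of the SKP arrays, dorsal array 3 alone reached into the MSC range. The rise was 1.74 (SE 0.30, adjusted p = 0.00111), called in facial (2.26) and ventral SKPs (1.98) and not in dorsal SKPs (0.96, adjusted p = 0.113). Without dorsal array 3 the dorsal value was 1.49 and was called (adjusted p = 0.00514). The difference between facial and dorsal SKPs was not called (1.31, adjusted p = 0.176).

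Itga1, a receptor for collagen IV and laminin, differed more among MSC isolates than between cell types. It stood at 7.72 and 7.89 on MSC arrays 1 and 2 and at 11.20 and 11.19 on arrays 3 and 4, and all 9 SKP arrays (7.98 to 9.74) lay between those pairs. The difference was -0.45 (95% confidence interval -1.79 to 0.88, adjusted p = 0.65). Itga2, another of the collagen-binding subunits, stood at 7.13, 6.53 and 6.73 on the ventral arrays, above all dorsal (4.48 to 4.82) and facial arrays (4.65 to 5.55). MSC arrays spread from 4.37 to 7.27. Its difference between dorsal and ventral SKPs (-2.18, SE 0.57, adjusted p = 0.0464) was called. Leaving out any single SKP array or MSC array 2 ended that call (adjusted p 0.056 to 0.156), with 0.00133 to 0.156 over all 24 alternatives. For facial against ventral SKPs the difference was -1.68 (adjusted p = 0.107).

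Of the alpha subunits for fibronectin, Itga4 was higher in SKPs and Itga5 was not called. Itga4, which with beta 1 also binds Vcam1, stood at 9.19, 9.04 and 8.31 on the dorsal, 9.04, 7.47 and 8.74 on the facial and 9.71, 9.62 and 9.66 on the ventral arrays. The MSC arrays gave 4.36, 4.95, 8.38 and 7.77. Arrays 1 and 2 lay far below every SKP array, while arrays 3 and 4 overlapped with dorsal and facial ones. The rise was 2.61 (SE 0.66, adjusted p = 0.0117). Without MSC arrays 1 and 2 it was 0.90 and lost its call (adjusted p = 0.116), and without arrays 3 and 4 it was 4.32 (adjusted p = 3.75e-05). By region it was called in ventral SKPs (3.30, adjusted p = 0.0128; 1.59 without MSC arrays 1 and 2 and 5.01 without arrays 3 and 4). It was not called in dorsal (2.48, adjusted p = 0.0647) or facial SKPs (2.05, adjusted p = 0.114), but both were called without MSC array 3 (3.15, 0.0141, and 2.72, 0.0259), and the dorsal value also without MSC array 4 (2.95, 0.0422). Without MSC arrays 3 and 4 together they were 4.19 and 3.76, called too. No pair of regions differed by a called amount. Itga5, the main fibronectin receptor subunit, ranged from 9.14 to 9.72 in SKPs and from 9.27 to 9.88 in MSCs, with a difference of -0.12 (95% confidence interval -0.39 to 0.15). Without MSC arrays 1 and 2 that difference was 0.05 (adjusted p = 0.863).

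Of the 2 measured alpha subunits grouped here as laminin receptors, Itga7 was lower in SKPs and Itga6 was not called. Itga7, best known from muscle, stood at 5.80, 5.90 and 6.94 on the dorsal, 6.96, 6.34 and 6.16 on the facial and 6.63, 6.88 and 6.88 on the ventral arrays, against 8.14, 7.22, 8.77 and 7.46 on the MSC arrays. No SKP array reached the lowest MSC array. The fall was 2.64-fold (log2 difference -1.40, SE 0.29, adjusted p = 0.004) and was called in each region (dorsal -1.68, facial -1.41, ventral -1.10). The ventral call (adjusted p = 0.0494) was lost in 16 of 24 alternatives, among them 10 of the 13 that leave out a single array (adjusted p 0.051 to 0.145; the exceptions were dorsal array 3, MSC array 2 and MSC array 4). The facial call was lost without facial array 2 (adjusted p = 0.068), facial array 3 (0.0831) or MSC arrays 3 and 4 (-1.19, 0.0632). Itga6, found in epithelia and many precursor cells, ranged from 8.27 to 10.22 in SKPs and 9.46 to 9.91 in MSCs (difference -0.20, 95% confidence interval -0.84 to 0.44).

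Of the 8 beta subunits, Itgb1 and Itgb8 were called for SKPs as a whole against MSCs, both lower in SKPs. Their share, 25%, was near the 25.3% of all genes called. Itgb1, the partner of the 8 collagen, laminin and fibronectin subunits above, lay within a narrow band on the SKP arrays, 12.09 to 12.32, and at 12.41, 12.48, 12.96 and 13.15 on the MSC arrays. The groups did not overlap, and MSC arrays 3 and 4 were the highest. The fall was 1.46-fold (log2 difference -0.54, SE 0.13, adjusted p = 0.00721), or -0.24 without MSC arrays 3 and 4 (adjusted p = 0.0696) and -0.85 without arrays 1 and 2. By region it was called in dorsal (-0.64, adjusted p = 0.0164; -0.33 without MSC arrays 3 and 4) and facial SKPs (-0.52, adjusted p = 0.0395), the dorsal call being lost in 2 and the facial call in 14 of 24 alternatives. In ventral SKPs it was not called (-0.47, adjusted p = 0.0522), but was without MSC array 1 (-0.58, 0.0171) or MSC array 2 (-0.56, 0.0292). Without MSC arrays 1 and 2 together the ventral value was -0.77 (0.000581), called too. Itgb8, which with alpha v activates TGF-beta, ranged from 5.28 to 6.29 in SKPs and 5.94 to 6.81 in MSCs (-0.63, adjusted p = 0.034). That call was lost without facial array 2 (0.0532), facial array 3 (0.0543), ventral array 1 (0.0536), ventral array 3 (0.0518), MSC array 1 (0.0697), MSC array 2 (0.111) or MSC array 3 (0.11), in 9 of 24 alternatives in all, and ran from 0.00917 to 0.24.

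Itgb3 and Itgb5, partners of alpha v in receptors for vitronectin, were not called against MSCs. Itgb3 stood at 8.56, 8.19 and 5.09 on the dorsal arrays, and every other SKP array lay between 7.91 and 8.92. The MSC arrays gave 7.61 to 8.24, so dorsal array 3 alone lay below the MSC range, though above the low level defined earlier. The difference between SKPs and MSCs was 0.06 (95% confidence interval -1.01 to 1.12). On dorsal array 3 Itgb5 stood at 9.66, below the 9.92 to 10.86 of all others. Of the remaining beta subunits, Itgb4 (4.04 to 4.66), the partner of alpha 6 in hemidesmosomes, and Itgb6 (3.56 to 4.24), an epithelial subunit, spanned under 1 over all 13 arrays. Itgb7, a leukocyte subunit, was lower in facial SKPs (4.11, 3.49 and 3.86) than in dorsal ones (4.46, 4.46 and 4.60), and was low by the threshold above in facial SKPs. That difference (-0.69, adjusted p = 0.0338) was lost in 16 of 24 alternatives, 10 of them leaving out a single array (adjusted p 0.051 to 0.0954; dorsal array 1 gave 0.0604, dorsal array 2 0.0537, dorsal array 3 0.0954, facial array 2 0.0658, facial array 3 0.0954, ventral array 1 0.0597, ventral array 2 0.06, ventral array 3 0.0644, MSC array 2 0.0515 and MSC array 4 0.051). Against MSCs (4.14 to 4.34) Itgb7 was called in facial SKPs alone (-0.42, adjusted p = 0.0408), a call lost in 16 of 24 alternatives (-0.25 without facial array 2, adjusted p = 0.158).

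**Figure D2:**
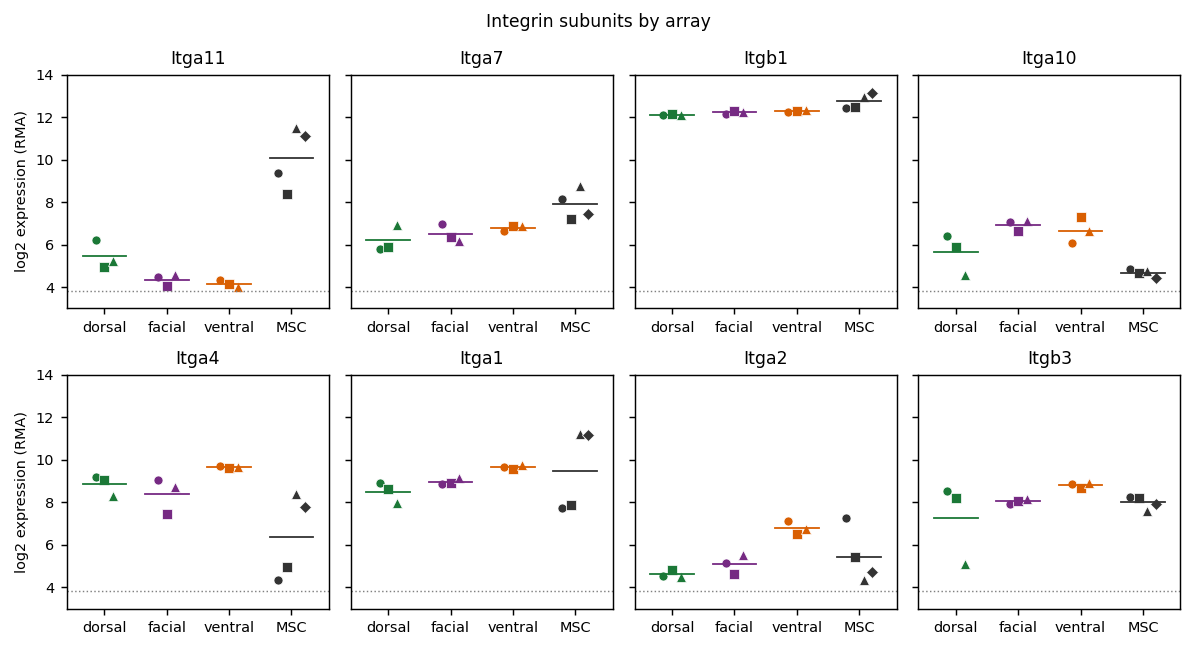
Log2 expression of 8 integrin subunits on each array, by group; circle, square, triangle and diamond are arrays 1 to 4 of a group, bars are group means, and the dotted line is the low level averaged over the groups. Itga11 lies at 8.40 to 11.49 in MSCs against 4.01 to 6.24 in SKPs, and for Itga4 and Itga1 the MSC arrays fall into pairs.

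The leukocyte subunits Itgb2, Itgam and Itgal were higher on all 3 facial arrays and on dorsal array 1 than on any MSC array. Itgb2, the beta subunit found on all leukocytes, stood at 8.29, 6.39 and 10.57 on the facial and 7.32, 5.06 and 4.79 on the dorsal arrays. It stood at 4.68, 5.36 and 4.78 on the ventral and 4.90, 4.92, 4.46 and 4.71 on the MSC arrays. Its myeloid partner Itgam stood at 6.53, 4.97 and 8.69 on the facial, 5.52, 3.31 and 2.64 on the dorsal and 3.65, 3.32 and 3.79 on the ventral arrays, against 2.84 to 3.50 in MSCs. Its lymphoid and myeloid partner Itgal stood at 6.12, 5.41 and 9.40 on the facial, 6.14, 4.33 and 4.27 on the dorsal and 3.97, 4.32 and 4.46 on the ventral arrays, against 3.43 to 3.99 in MSCs. All facial arrays lay above all MSC arrays for each of these genes, facial array 3 was the highest in all, and dorsal array 1 stood above the other dorsal arrays. Itgam was low in dorsal and ventral SKPs and in MSCs, and Itgal in MSCs.

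In facial SKPs against MSCs the differences were 3.67 for Itgb2 (adjusted p = 0.0081), 3.42 for Itgam (0.00947) and 3.18 for Itgal (0.013). Without facial array 3 they were 2.59 (0.0251), 2.44 (0.0341) and 1.97 (0.0162), and called. Without MSC arrays 3 and 4 none of these was called (0.0506, 0.0534 and 0.0536), nor was Itgal without MSC arrays 1 and 2 (0.062). For all SKPs none was called (1.61, 1.40 and 1.58, adjusted p 0.0878, 0.12 and 0.0774), while without facial array 2 Itgb2 (1.95, 0.0156), Itgam (1.70, 0.0341) and Itgal (1.84, 0.0286) were. Itgal was called without facial array 3 too (1.18, 0.0214). Between facial and ventral SKPs Itgb2 (3.48, adjusted p = 0.0346) and Itgam (3.14, 0.0439) were called. The call of Itgb2 was lost without facial array 1 (0.0801), facial array 3 (2.40, 0.0876), ventral array 1 (0.12), ventral array 2 (0.0794) or ventral array 3 (0.107), and in 10 of 24 alternatives in all. That of Itgam was lost without any single array (0.0532 to 0.13; without facial array 3, 2.16) other than dorsal arrays 1 and 3 and facial array 2, and in 15 of 24 alternatives in all. The 15 macrophage and leukocyte markers, none of them an integrin, had means of 7.55, 6.21 and 10.05 on the facial, 7.04, 5.20 and 4.33 on the dorsal, 5.33 to 5.60 on the ventral and 4.26 to 4.79 on the MSC arrays. In facial SKPs against MSCs 12 of the 15 were called higher and 0 lower. Of the 15, 3 were low in MSCs, among them Ptprc (3.37 to 4.09) and Adgre1 (2.64 to 3.09), and the others were not. In dorsal SKPs 2 were low, in ventral SKPs 2 and in facial SKPs 0. The part of macrophages and leukocytes in the result was not tested. In such bulk samples fewer cells of a type and less RNA per cell cannot be told apart. Itgad, which lies beside Itgam with only Itgax between them in the GRCr8 gene order, and Itgae, a subunit of T cells in epithelia, stayed between 3.46 and 4.17 on all arrays.

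**Figure D3:**
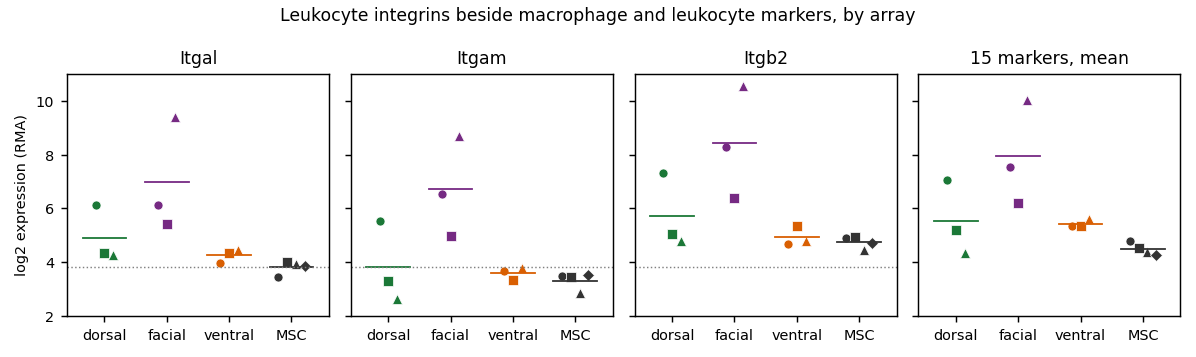
Log2 expression of Itgal, Itgam and Itgb2 on each array, beside the mean of 15 macrophage and leukocyte markers; symbols, bars and dotted line are as in the plot of integrin subunits. Facial array 3 is highest in all 4 panels (9.40, 8.69, 10.57 and 10.05) and dorsal array 1 is the highest dorsal array.

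N-cadherin was the one cadherin that differed by at least 1 between SKPs and MSCs. Cdh2 stood at 7.72, 7.54 and 7.39 on the dorsal, 8.41, 8.17 and 7.85 on the facial and 6.77, 7.52 and 6.98 on the ventral arrays, against 6.23, 5.46, 6.0 and 4.44 on the MSC arrays. Every SKP array lay above every MSC array. The rise was 4.18-fold (log2 difference 2.06, SE 0.28, adjusted p = 0.000214) and was called in dorsal (2.02), facial (2.61) and ventral SKPs (1.56). Facial arrays lay above all ventral and dorsal ones, but the differences between regions were not called (facial minus ventral 1.06, adjusted p = 0.122; facial minus dorsal 0.59, adjusted p = 0.509).

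Cdh15, the cadherin of muscle precursors, moved the other way. It ranged from 4.24 to 5.04 in SKPs and stood at 5.41, 5.38, 6.35 and 5.41 on the MSC arrays, with no overlap (-0.90, SE 0.20, adjusted p = 0.00603). In single regions the dorsal call (-0.94) was lost without dorsal array 1 (0.101) or MSC arrays 3 and 4 (0.0749), and the ventral one (-0.90) without ventral array 1 (0.0707), ventral array 2 (0.0952) or MSC arrays 3 and 4 (0.0678). The facial call (-0.84) was lost without facial array 1 (0.0639), facial array 2 (0.0953), facial array 3 (0.123), ventral array 1 (0.0547) or MSC array 3 (0.0568), and without MSC arrays 3 and 4 (0.113), in 8 of 24 alternatives in all. Of the 7 measured skeletal muscle markers, Des (-2.26, adjusted p = 0.00176) and Myod1 (-0.95, 0.00537) were lower in SKPs as well. Chrna1, low in MSCs, was higher (2.83, 5.97e-05), and 4 were not called. The mean of the 7 markers was 4.34 to 5.39 on SKP and 4.49 to 5.03 on MSC arrays, and their part in the value of Cdh15 was not tested. Cdh23, an atypical cadherin known from hair cells of the inner ear, stood at 4.39, 5.46 and 4.91 on the dorsal and 4.33 to 4.39 on the other SKP arrays, above the 3.68 to 4.15 of MSCs. Its rise (0.56, adjusted p = 0.0211) did not pass without MSC array 3 (0.46, 0.0765) or without MSC array 4 (0.0531), nor without both (0.41, 0.209). By region it was called in dorsal SKPs (0.94, adjusted p = 0.00702; 0.80, 0.0539, without MSC arrays 3 and 4) and not in facial (0.37) or ventral SKPs (0.36). Cdh13, which is tied to the membrane by a lipid anchor, was not called (9.07 to 10.14 in SKPs, 8.47 to 9.88 in MSCs; 0.26, 95% confidence interval -0.28 to 0.80).

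E-cadherin (Cdh1) stayed near the low level on most arrays: 4.37, 3.63 and 3.61 on the dorsal, 3.93, 4.07 and 5.95 on the facial, 4.12, 3.79 and 4.77 on the ventral and 3.65 to 3.94 on the MSC arrays. Facial array 3 alone exceeded 5. The 7 measured keratinocyte markers had means of 3.32 to 4.06 on SKP and 3.47 to 3.86 on MSC arrays, and 4 or 5 of the 7 were low in each group. The type II cadherins Cdh8 and Cdh20, the neural Cdh10, the Schwann cell cadherin Cdh19 and the kidney cadherin Cdh16 were low in every group, by group mean. Cdh10 against MSCs in facial SKPs (0.74, adjusted p = 0.0317) and Cdh19 in ventral SKPs (0.44, adjusted p = 0.0378) were called at these levels, each losing the call in 11 of 23 alternatives. On dorsal array 3 Cdh20 stood at 5.01, against 2.94 to 3.45 on all other arrays.

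Of the 7 non-clustered protocadherins, 3 rose in SKPs (Pcdh7, Pcdh18 and Pcdh1) and 0 fell, where 13.1% of all genes rose and 12.2% fell. At an unadjusted p under 0.05 (limma) 3 were higher and 1 lower, against 2603 and 2603 of all 14506 genes. Pcdh7, a delta protocadherin, stood at 9.25, 9.73 and 8.28 on the dorsal, 8.83, 8.87 and 8.83 on the facial and 8.63, 9.23 and 8.76 on the ventral arrays, against 5.91, 5.75, 6.66 and 5.59 on the MSC arrays. The lowest SKP array was well above the highest MSC array. The rise was 7.77-fold (2.96, SE 0.25, adjusted p = 6.58e-06), or 3.11 for the dorsal, 2.86 for the facial and 2.89 for the ventral group, each called.

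Pcdh18, a delta protocadherin too, stood at 9.13, 9.43 and 8.52 on the dorsal, 9.06, 8.79 and 8.77 on the facial and 9.27, 9.39 and 8.78 on the ventral arrays, against 6.68, 7.20, 7.65 and 8.30 on the MSC arrays. SKP and MSC arrays did not overlap, and MSC array 4 came closest. The rise was 1.56 (SE 0.26, adjusted p = 0.00095), or 1.04 without MSC arrays 1 and 2 and 2.08 without arrays 3 and 4, called each time. Pcdh1, found in epithelia and airway, ranged from 6.64 to 7.81 in SKPs and stood at 5.59, 5.33, 6.43 and 6.91 on the MSC arrays, so that MSC array 4 overlapped with facial array 3. Its rise was 1.33 (SE 0.27, adjusted p = 0.00298), or 0.73 (adjusted p = 0.0425) without MSC arrays 1 and 2. By region, Pcdh18 was called in all 3 (in facial SKPs not without MSC arrays 1 and 2, 0.90, adjusted p = 0.0631) and Pcdh1 in dorsal (1.37) and ventral SKPs (1.59), with facial at 1.03 (adjusted p = 0.0518). The dorsal call of Pcdh1 was lost without MSC arrays 1 and 2 (0.77, adjusted p = 0.075) or dorsal array 3 (1.26, 0.0527), and the ventral value was 0.99 (0.0224) without MSC arrays 1 and 2. The facial value passed without facial array 3 (1.27, 0.0464), MSC array 3 (1.15, 0.0495) or MSC array 4 (1.32, 0.0111). Without MSC arrays 3 and 4 together it was 1.64 (0.00163), called too.

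The other non-clustered protocadherins gave no call against MSCs for SKPs as a whole. Pcdh20 spread most among MSC isolates, with 4.25, 4.10, 5.74 and 7.82 on arrays 1 to 4. In SKPs it stood at 5.03, 5.75 and 5.18 on the ventral arrays and at 3.26 to 4.98 on dorsal and facial ones (SKPs minus MSCs -1.13, 95% confidence interval -2.40 to 0.15). Pcdh8, known from the early mesoderm and neurons, was lower in ventral SKPs than in MSCs (3.92 to 4.03 against 4.17 to 4.57; -0.39, adjusted p = 0.0217). That call was lost without ventral array 1 (0.081), ventral array 2 (0.066), MSC array 1 (0.0536) or MSC arrays 3 and 4 (0.0714). Pcdh17 and Pcdh11x, protocadherins of neurons, spanned 4.36 to 5.24 over all arrays.

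**Figure D4:**
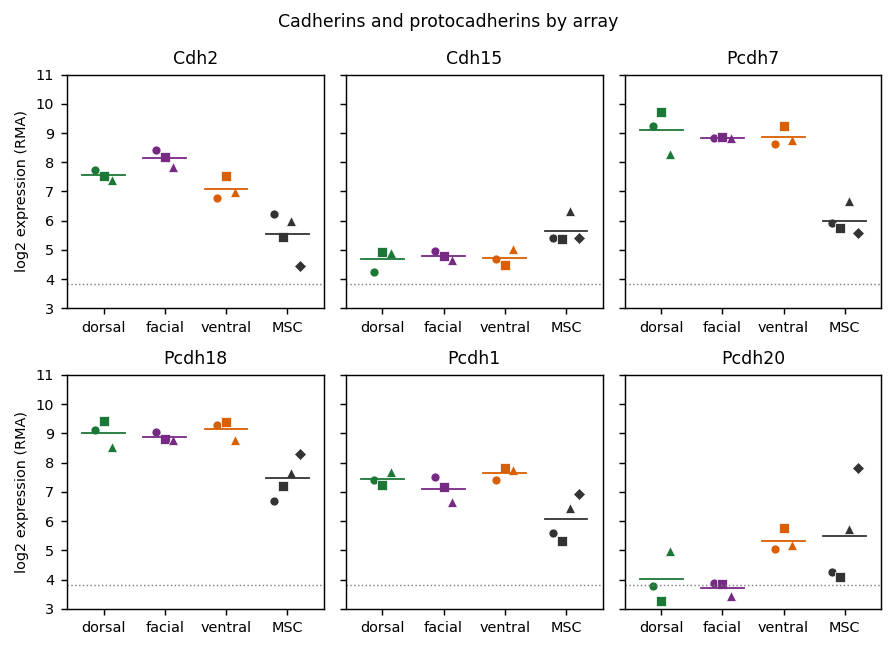
Log2 expression of 2 cadherins and 4 non-clustered protocadherins on each array; symbols, bars and dotted line are as in the plot of integrin subunits. Cdh2, Pcdh7 and Pcdh18 lie higher on all 9 SKP arrays than on any MSC array, Cdh15 lies lower, and Pcdh20 ranges from 4.10 to 7.82 among MSC arrays.

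The 9 clustered protocadherins, all of the Pcdhb array whose promoters are shown above, lay at low to moderate levels. In ventral SKPs against MSCs 2 of them were called, both higher (22.2%, near the 24.4% of all genes called). Between dorsal and ventral SKPs 2 were called as well (22.2%, against 6.11% of all genes). Pcdhb20 stood at 4.80, 4.55 and 4.62 on the dorsal, 5.21, 4.84 and 4.98 on the facial and 5.94, 5.43 and 5.91 on the ventral arrays, against 4.20, 4.46, 4.98 and 4.60 in MSCs. Ventral arrays lay above all others. It was higher in ventral SKPs than in MSCs by 1.20 (SE 0.18, adjusted p = 0.000634) and than in dorsal SKPs by 1.10 (dorsal minus ventral -1.10, SE 0.20, adjusted p = 0.00876). Against facial SKPs the difference (facial minus ventral -0.75, adjusted p = 0.0428) was lost without dorsal array 2 (0.0535), facial array 1 (0.0576), facial array 2 (0.121), facial array 3 (0.112), ventral array 1 (0.161), ventral array 3 (0.149), MSC array 2 (0.0583) or MSC array 4 (0.0587), and in 10 of 24 alternatives in all. For SKPs as a whole Pcdhb20 was higher by 0.58 (adjusted p = 0.0111), or 0.35 without MSC arrays 1 and 2 (0.174). Its neighbour Pcdhb21 stood at 5.65, 5.49 and 5.36 on the ventral arrays, above the 4.24 to 5.05 of all others (ventral SKPs minus MSCs 0.74, adjusted p = 0.0102; dorsal minus ventral -0.97, adjusted p = 0.0129). Without ventral array 1 these were 0.66 (0.0509) and -0.90 (0.0628). The other 7, Pcdhb2, Pcdhb3, Pcdhb4, Pcdhb5, Pcdhb6, Pcdhb8 and Pcdhb12, gave no call in any comparison. Ventral array 1 was the highest of all 13 arrays for Pcdhb3 (4.89), Pcdhb5 (4.71), Pcdhb6 (3.98) and Pcdhb12 (4.06), and Pcdhb4 and Pcdhb12 were low in every group.

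Few members differed between SKP regions. Between facial and dorsal SKPs 1 of 51 was called (1.25% of all genes were), between facial and ventral 5 (6.60% of all genes) and between dorsal and ventral 4 (6.11% of all genes), and the members' shares of 1.96%, 9.8% and 7.84% lay near those of all genes. The most separate was VE-cadherin, Cdh5, the adhesion molecule of endothelial junctions. It stood at 4.99, 4.87 and 4.65 on the ventral arrays, 3.95, 3.78 and 4.02 on the dorsal, 3.83, 3.75 and 3.64 on the facial and 3.74, 3.77, 3.90 and 3.84 on the MSC arrays. Ventral arrays lay above all others, and facial SKPs and MSCs were low. The difference was -1.10 for facial minus ventral (SE 0.11, adjusted p = 0.000292) and -0.92 for dorsal minus ventral SKPs (SE 0.11, adjusted p = 0.000927), and ventral SKPs exceeded MSCs by 1.03 (SE 0.11, adjusted p = 3.58e-05). These 3 calls held in every alternative run. Against MSCs, Cdh5 differed by 0.11 in dorsal and -0.07 in facial SKPs, neither called. For SKPs as a whole the value was 0.36 (adjusted p = 0.0074), and without MSC arrays 1 and 2 it was 0.30 (0.093).

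Endothelial markers moved with Cdh5. The 9 measured markers had means of 5.33 to 5.87 on the ventral arrays, 4.02 to 4.50 on the dorsal, 4.43 to 4.77 on the facial and 4.16 to 4.66 on the MSC arrays. Against MSCs 6 of the 9 were higher in ventral SKPs (Pecam1 by 2.63, Emcn by 2.42 and Kdr by 1.59 among them) and 1, Egfl7, was lower. Pecam1, Kdr and Emcn were low in dorsal and facial SKPs and in MSCs. The part of these cells in the values of Cdh5 was not tested. Cdh19, low in every group, was the other cadherin called between regions (facial minus ventral -0.61, adjusted p = 0.0314), at 2.75, 2.41 and 2.05 on the ventral and 1.71 to 2.02 on all other arrays. Its call was lost without facial array 1 (0.095), facial array 2 (0.0834), facial array 3 (0.0512), ventral array 1 (0.108) or ventral array 2 (0.0927), and in 8 of 23 alternatives in all. The 7 measured Schwann and glial markers had means of 5.37 to 5.54 on the ventral and 4.93 to 5.54 on all other arrays.

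**Figure D5:**
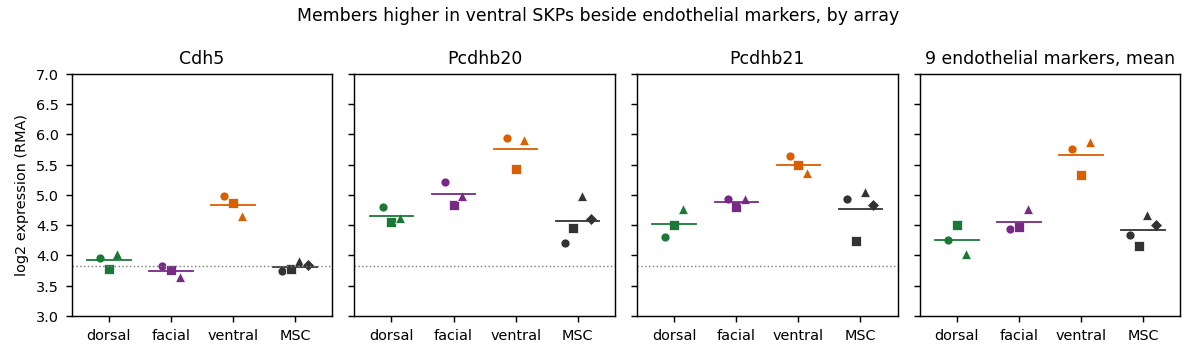
Log2 expression of Cdh5, Pcdhb20 and Pcdhb21 on each array, beside the mean of 9 endothelial markers; symbols, bars and dotted line are as in the plot of integrin subunits. The 3 ventral arrays are the highest in each panel, for Cdh5 at 4.65 to 4.99 against 3.64 to 4.02 on all other arrays.

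Outside the families, Itgbl1 stood at 7.55, 6.29 and 6.52 on the dorsal, 7.09, 7.67 and 7.88 on the facial and 8.50, 8.35 and 8.57 on the ventral arrays, against 8.44, 8.34, 10.64 and 10.41 in MSCs. Ventral SKPs overlapped with MSC arrays 1 and 2, and its fall (-1.86, adjusted p = 0.00726) was -0.79 (adjusted p = 0.0917) without MSC arrays 3 and 4 and -2.92 (8.18e-05) without arrays 1 and 2.

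The cytoplasmic partners of integrins were lower where they were called for SKPs as a whole. Of 25 measured linkage genes 14 fell and 0 rose (15 and 3 at an unadjusted p under 0.05, limma), with a median of -0.46 against -0.02 over all genes, of which 12.2% fell and 13.1% rose. By region against MSCs, 1125 of all 14506 genes fell and 1272 rose in dorsal, 1654 and 1891 in ventral and 1389 and 1373 in facial SKPs. Of the linkage genes 11 fell and 0 rose in dorsal, 13 and 0 in ventral and 10 and 2 in facial SKPs. The 2 that rose in facial SKPs were Fermt3 (2.69, adjusted p = 0.0216), the kindlin of blood cells, and Parvg (2.48, 0.0171), a parvin of leukocytes, chosen after their values were seen. The macrophage and leukocyte markers given above were higher there too, and their part was not tested. The 14 linkage genes that fell in SKPs as a whole included Lims2 (-3.37, adjusted p = 0.000113), of the complex around integrin-linked kinase, and vinculin (Vcl, -2.04, 6.81e-05). They also included Tgfb1i1 (-1.65, 7.86e-05), a paxillin relative, and filamin A (Flna, -1.52, 6.86e-06). The list's mean was 7.95 to 8.39 on SKP and 8.46 to 8.97 on MSC arrays, highest on MSC arrays 3 and 4 (8.73 and 8.97). Of the 9 smooth muscle and pericyte markers 7 fell in the same comparison, their mean was highest on the same arrays (9.70 and 10.15), and their part was not tested. Without MSC arrays 3 and 4 the number that fell was 8.

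Cadherin partners split. Of 21 measured, 5 rose and 9 fell (13.1% and 12.2% of all genes did), with a median of -0.05. Ctnnd2 (1.19, adjusted p = 0.0491), a neural relative of p120-catenin, plakoglobin (Jup, 0.85, 0.0186), beta-catenin (Ctnnb1, 0.80, 2.3e-05) and the nectin Nectin3 (0.77, 0.000311) rose. Magi3 (-1.81, 6.1e-07), a scaffold of junctions, plakophilin 2 (Pkp2, -1.46, 5.72e-06), the phosphatase Ptpn14 (-1.28, 9.74e-05) and Lima1 (-1.13, 0.000193), which links cadherin complexes to actin, fell. Integrin ligands also split: of 34 measured 4 rose and 9 fell (against the same 13.1% and 12.2% of all genes), with a median of -0.10. Osteopontin (Spp1, 1.77, adjusted p = 0.00458), Vcam1 (1.51, 0.028), Col4a1 (1.33, 0.0316) and Tgfb1 (0.63, 0.00445) rose, while Thbs1 (-3.25, 0.000864), Ccn2 (-2.88, 3.71e-06), Ccn1 (-2.30, 0.000139) and Fbln5 (-1.33, 0.013) fell furthest. These lists were chosen with earlier results of these data known, so their counts are descriptions. Without MSC arrays 1 and 2 the cadherin partners gave 3 higher and 7 lower, and the ligands 3 higher and 8 lower. Without MSC arrays 3 and 4 the partners gave 4 higher and 6 lower, and the ligands 4 higher and 5 lower.

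In all, 8 of the 51 members were low in every group and 31 in none, while MSCs had 17 low members, dorsal SKPs 14, facial SKPs 16 and ventral SKPs 9. The members not named above, Cdh17 (an intestinal cadherin), Cdh22 and Itgb3bp, were not called in any comparison.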

How the data were processed

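RNA of 13 cultures was hybridised to 1 array each, with 3 isolates of each SKP region and 4 of MSCs. Per the labels, the authors summarised the arrays by RMA in Expression Console (core gene level), and what they deposited is on a log2 scale. Limma also stands among the tools of the submitters' processing notes, with no version given. RMA aligns the distributions of all arrays and compresses differences at low signal. Arrays have no read depth, and precision depends on a gene's spread between isolates and on how many arrays a group has.

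Of 29215 probe sets, 15310 carried 1 symbol, 323 several and 13582 none. Symbols were updated through Entrez identifiers and accessions, and for genes with several probe sets the one with the highest mean was kept. limma 3.58.1 (R 4.3.3) fitted the group means to all 13 arrays (lmFit, contrasts, eBayes), two-sided, with Benjamini-Hochberg adjustment over all genes of a comparison and a threshold of 0.05. The script was tested on simulated data. Genes with low levels were kept. P-values rest on the spread between isolates, taken as independent per the labels. The MSC arrays formed pairs, as described above, and whether paired isolates share an origin was not tested. Every p-value against MSCs depends on these arrays being independent.

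Values are given, array by array or as ranges over a group, for members called at a log2 difference of at least 1 and for the measured members of a fixed set. Members, lists and the naming rule were chosen with earlier results of these data known. The alternatives were the sample number as a block, each array left out in turn, 2 arrays left out together, the compared groups alone, mean of probe sets, a filter on low genes, 2 further normalizations, a trended robust variance and array weights. Leaving out pairs of MSC arrays was chosen after seeing the data.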

Additional observations from a re-analysis of the deposited data

Results flagged for a closer look

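Among the 4 MSC arrays, array 3 lay apart from the other 3 for Cdh15, where it was the highest at 6.35, and for Itgam, where it was the lowest at 2.84. These were 2 of 26 members examined in this way, and chance alone flags about 1 in 20.

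The regions differed from each other, by the fit's own test of the difference, for 8 members. Facial minus dorsal SKPs gave -0.69 for Itgb7. Facial minus ventral SKPs gave -0.61 for Cdh19, -1.10 for Cdh5, -0.75 for Pcdhb20, 3.14 for Itgam and 3.48 for Itgb2. Dorsal minus ventral SKPs gave -0.92 for Cdh5, -2.18 for Itga2, -1.10 for Pcdhb20 and -0.97 for Pcdhb21.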

How the results depend on the processing

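Of 64 differences of a member in a comparison that were called, 27 kept direction and call under each of up to 24 alternatives, among them those of Itga11, Cdh2 and Pcdh7 in all SKPs and in each region and those of Cdh5 in ventral SKPs. Direction turned once, for Itga5, which was not called (SKPs minus MSCs 0.05 without MSC arrays 1 and 2). With the sample number as a replicate block the members called were 14 in SKPs against MSCs, 0 for facial minus dorsal and 1 for facial minus ventral, and the linkage genes called were 9. The numbers pair no samples by the labels, 1 of 18 same-numbered pairs had deviations correlated over 0.1 (-0.12 to 0.20), and 6 of 13 arrays correlated best with their own number. Without dorsal array 3 and facial array 3 together facial minus dorsal gave 0 and facial minus ventral 3. With the compared groups alone in the fit, which leaves fewer arrays to estimate the spread, the counts were 3 for dorsal and 9 for facial SKPs against MSCs, 0 for facial minus dorsal and 9 for facial minus ventral. Array weights gave 0, 10 and 8 for facial minus dorsal, facial minus ventral and dorsal minus ventral. Without MSC arrays 1 and 2, or without arrays 3 and 4, facial minus dorsal gave 0 and dorsal minus ventral 7, and the linkage genes were 8 without arrays 3 and 4. For counts whose cause of change is not named, it was not tested. Leaving out single arrays gave 14 to 17 members for SKPs, 9 to 12 for dorsal, 8 to 14 for facial and 9 to 17 for ventral SKPs against MSCs. It gave 0 to 2 for facial minus dorsal, 1 to 6 for facial minus ventral, 2 to 4 for dorsal minus ventral, 11 to 15 linkage genes, 10 to 15 cadherin partners and 10 to 17 integrin ligands. A count of 0 is that of limma after adjustment. In the main fit facial minus dorsal had 5 of 51 members higher and 2 lower at an unadjusted p under 0.05 (limma). Of all 14506 genes 951 were higher and 1150 lower at that threshold.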

Other observations

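Outside the comparisons were 3 probe sets that name several clustered protocadherins. The one for 13 Pcdhg genes had means of 6.47 ± 0.18 for dorsal, 7.0 ± 0.04 for facial and 6.84 ± 0.04 for ventral SKPs (SD, n = 3 each) and 6.45 ± 0.11 for MSCs (SD, n = 4). The one for 15 Pcdha genes had 3.86 ± 0.01, 3.85 ± 0.14, 3.89 ± 0.10 and 3.92 ± 0.21 in the same order. The one shared by Pcdhb9 and Pcdhb10 had 4.24 ± 0.16, 4.23 ± 0.18, 4.44 ± 0.16 and 3.99 ± 0.25.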
